A study of Mus musculus with 8 samples.

Results

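Nucleolar ribosome assembly genes were followed across 8 RNA sequencing libraries of mouse CD4+ T cells that differ in Rora genotype and, for cultured cells, in cytokine mix. The genes were picked out by symbol, as the numbered Utp, Nop, Nol, Rrp and Exosc genes with Polr1a to Polr1e, Imp3 and Imp4. This choice was made with earlier results of these data known. Of 53657 genes found by symbol in all libraries, 53 matched and 50 were kept, with the 3 genes Nol3, Nol4 and Nol4l left out by name. By role, 5 encode subunits of RNA polymerase I, 21 belong to the small subunit processome, 3 to small nucleolar ribonucleoproteins (snoRNPs), 11 to large subunit assembly and 10 to the RNA exosome. All 50 are annotated as protein-coding.

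Ribosomes are built in the nucleolus, where RNA polymerase I transcribes a long precursor of the ribosomal RNAs. The small subunit processome, a large assembly of proteins around the U3 snoRNP, folds and cleaves the small subunit part of the precursor, while other factors shape the large subunit and the RNA exosome trims the ends and removes spacers. Growing and dividing T cells make many ribosomes, and the transcription factor MYC and the kinase complex mTORC1 are known to promote the expression of assembly genes. By its title the study asked about RORα, the nuclear receptor encoded by Rora, and mTORC1 activity during colitis driven by T cells.

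Knockout (KO) cells came from Cd4_cre Rora_fl/fl mice, in which Cd4 regulatory sequence drives Cre in the T cell lineage, and wild-type (WT) cells came from Rora_fl/fl mice, so both carry the floxed alleles. For the colitis model naive cells were given to Tcrbd-/- hosts, which lack T cells of their own and keep other immune cells, and the colon was sampled after 6 weeks (2 KO and 2 WT libraries). For T helper 17 (Th17) cells, naive cells were stimulated with antibodies to CD3 and CD28 for 4 days with IL-6+IL-1β+IL-23 or with TGF-β+IL-6. Each combination of mix and genotype had 1 library. All cells received PMA and ionomycin, which activate T cells, for 2 hours. No source used here says whether libraries of a group came from separate mice. In the colon the p-values therefore measure the spread between the libraries at hand, and that spread may be technical. In culture no combination had a repeat. The p-values there rest on how far the mix difference varied between genotypes (1 residual degree of freedom), moderated by the spread over all genes tested.

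Libraries held 13176752 to 15922696 counts. Rora RNA, which checks the labels, was lower in each KO library than in its WT counterparts, at 59.1 against 152 CPM with IL-6+IL-1β+IL-23, 190 against 499 CPM with TGF-β+IL-6, and 134 and 149 against 252 and 291 CPM in the colon. CPM values are counts divided by a library size that was scaled by TMM, separately for cultured and colon libraries. The T cell markers Cd3e (150 to 324 CPM) and Cd4 (455 to 1032 CPM) were present in each library. A ribosome assembly gene had a median of 1211 counts in a library.

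The 50 genes took more of the RNA in cells grown with TGF-β+IL-6 than in the other libraries. They took 0.498% of KO counts and 0.505% of WT counts with IL-6+IL-1β+IL-23, against 0.793% of KO counts and 0.771% of WT counts with TGF-β+IL-6. In the colon they took 0.513% and 0.501% in KO libraries, against 0.532% and 0.519% in WT libraries. The mixes thus stood far apart in both genotypes. In the colon the gap between the nearest KO and WT shares was smaller than the spread within a group. After TMM scaling, by contrast, the KO sums (4824 and 4677 CPM) lay well below the WT sums (5698 and 5549 CPM). Abundant genes weigh most in such sums: Nop53 alone had 742 and 685 CPM in KO libraries, against 1058 and 1127 CPM in WT libraries. The median log2 fold change of the genes tested was -0.08.

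**Figure D1:**
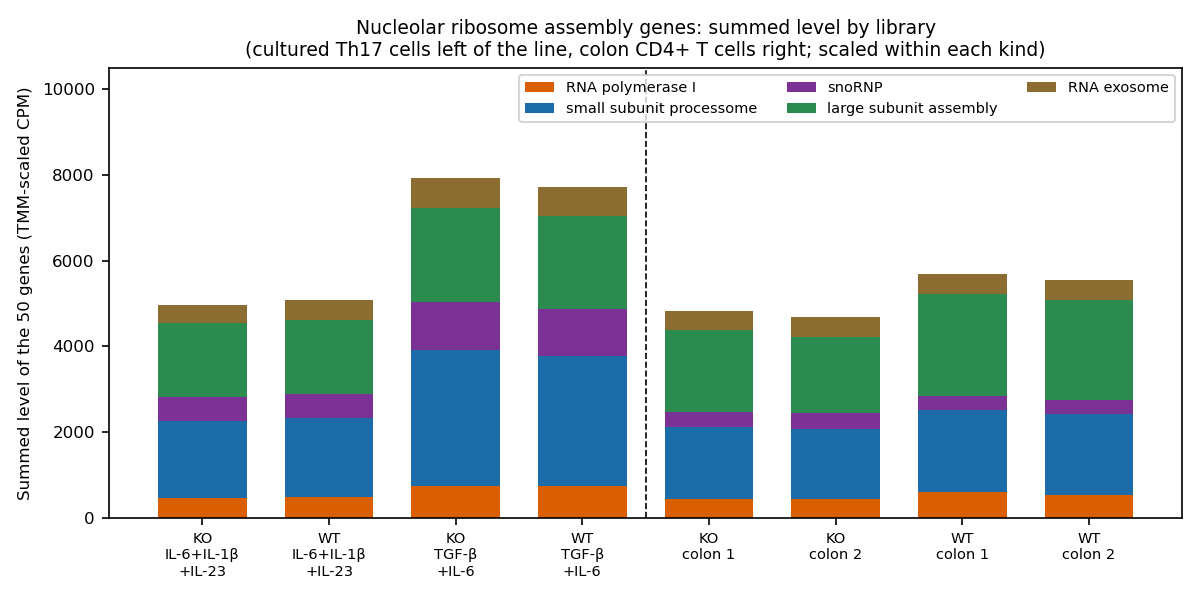
Summed level of the 50 genes in each library, stacked by role, as TMM-scaled CPM (bars start at 0; cultured and colon libraries were scaled separately). With IL-6+IL-1β+IL-23 the sums were 4975 CPM (KO) and 5075 CPM (WT), against 7924 CPM (KO) and 7717 CPM (WT) with TGF-β+IL-6; in the colon they were 4824 and 4677 CPM in KO libraries, against 5698 and 5549 CPM in WT libraries.

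Levels between genes were compared per length, as RPKM (TMM-scaled CPM per kilobase of exon, averaged over the 4 libraries of a kind). In cultured cells the 49 genes with any count ranged from 5.77 to 112 RPKM with a median of 25.4 RPKM. The highest was Nop2, an rRNA methyltransferase of the large subunit, at 112 RPKM, followed by Nop53, which docks the exosome on large subunit precursors, at 108 RPKM, and Rrp1, a large subunit factor, at 97.8 RPKM. In colon cells the median was 18.0 RPKM, Nop53 stood first at 235 RPKM and Rrp1 second at 131 RPKM. Imp3, a U3 snoRNP protein, followed at 90.8 RPKM, and Polr1c, a subunit shared by RNA polymerases I and III, at 85.3 RPKM.

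Exosc6, which encodes a ring subunit of the exosome, had 0 counts in all 8 libraries. All of its 1326 exon bases (chr8:111056339-111057664, plus strand, GRCm38) lie within exons of Aars on the same strand in GENCODE release M21, so its reads could not be told apart from those of Aars and the count of 0 sets no limit on its level. It was not tested, and the counts below are of 49 genes. Exons of 21 further genes overlap another annotated gene in part, over 0.7% to 29.9% of their bases. The largest overlaps were 29.9% for Nop9 (with Cideb), 19.8% for Exosc4 (Oplah), 16.5% for Nol7 (Ranbp9) and 12.5% for Rrp7a (Serhl), and that of Utp14b with Acsl3 was 3.2%. No source used here gives the strand setting of the counting.

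The first comparison set Th17 cells grown with IL-6+IL-1β+IL-23 against those grown with TGF-β+IL-6, with the genotypes as repeats. Most ribosome assembly genes were lower with IL-6+IL-1β+IL-23: 42 of 49 (85.7%) passed as lower and 4 (8.16%) as higher in edgeR's quasi-likelihood test, at a p under 0.05 after Benjamini-Hochberg adjustment over 13983 genes. Among all genes tested, 34.0% passed as lower and 35.8% as higher. The median log2 fold change of the 49 genes was -0.78 (quartiles -1.04 and -0.36), beside 0.02 for all genes. Of those that passed as lower, 15 had a log2 fold change of -1 or below and 32 of -0.5 or below. In 44 of 49 genes (89.8%) both IL-6+IL-1β+IL-23 libraries were below both TGF-β+IL-6 libraries, against 42.0% of all genes, and in 4 they were above, against 43.9%.

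Of the 5 RNA polymerase I subunits, the 3 found in that polymerase alone passed as lower, and of the subunits it shares with RNA polymerase III 1 passed as higher and 1 did not pass. A difference between shared and other subunits was not tested. Polr1b, the second largest subunit (chr2:129100995-129126594, plus strand, GRCm38), had 72.6 CPM (KO) and 65.8 CPM (WT) with IL-6+IL-1β+IL-23, against 228 CPM (KO) and 219 CPM (WT) with TGF-β+IL-6. This was 3.24-fold lower (log2 -1.69 ± 0.07 SE, adjusted p = 3.42e-07 in edgeR's test). Polr1a, the largest subunit, had 78.3 and 77.6 CPM against 208 and 222 CPM in the same order of libraries (-1.46 ± 0.07, adjusted p = 7.09e-07 in edgeR's test). Polr1e, which joins the polymerase as part of a small subcomplex, fell by 1.05 on the log2 scale. The shared subunit Polr1d was higher, at 178 CPM (KO) and 206 CPM (WT) with IL-6+IL-1β+IL-23, against 130 CPM (KO) and 132 CPM (WT) with TGF-β+IL-6 (0.55 ± 0.08). Polr1c, also shared, did not pass (-0.11 ± 0.07, edgeR adjusted p = 0.213), at 106 CPM (KO) and 109 CPM (WT), against 121 CPM (KO) and 112 CPM (WT). Of 19 subunits and factors of RNA polymerase III measured beside them, 13 passed as lower and 2 as higher (median -0.43).

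Of the 21 small subunit processome genes, 20 passed as lower and 1 as higher, with a median of -0.63. Utp20, a very large scaffold protein of the processome (chr10:88746607-88826804, minus strand, GRCm38), changed most of the 49 genes. It had 42.0 CPM (KO) and 40.3 CPM (WT) with IL-6+IL-1β+IL-23, against 196 CPM (KO) and 199 CPM (WT) with TGF-β+IL-6, a 4.79-fold lower level (-2.26 ± 0.07, adjusted p = 1.21e-07 in edgeR's test). In both genotypes the libraries of the mixes were far apart and those within a mix close together. Nol6 (-1.31), Nol10 (-1.23) and Utp18 (-1.18), other processome proteins, came next. Imp3, the highest of this group per length in the colon, moved less (-0.32 ± 0.08, adjusted p = 0.00614 in edgeR's test) and did not pass without either KO library. Utp23, known in yeast for work on the snR30 snoRNA, was the exception at 27.3 CPM (KO) and 28.2 CPM (WT) with IL-6+IL-1β+IL-23, against 23.4 CPM (KO) and 22.8 CPM (WT) with TGF-β+IL-6 (0.26 ± 0.09, adjusted p = 0.0332 in edgeR's test). Utp14a, which takes part in release of the U3 snoRNA, and its retrotransposed copy Utp14b, known in mouse for a role in making sperm, fell by 0.53 and 0.60 on the log2 scale. Acsl3, whose exons overlap those of Utp14b, fell by 0.58. Whether reads of Utp14b and Acsl3 were shared in counting was not tested.

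The RefSeq promoter table holds windows of 250 bases before to 50 after the start for 42 of the 50 genes. A pair of short motifs was looked up in them, the E-box CACGTG, which reads the same on both strands and is bound by MYC and related factors, and TAGGTCA, the core of the ROR response element, on either strand. The E-box occurred in 9 of 42 genes (21.4%), against 8.1% of all 27025 genes in the table, and TAGGTCA in 1 of 42 (2.4%), against 3.0%. The table also holds genes not tested here, and neither expression nor base composition was matched. These shares therefore cannot tell whether the E-box is particular to the ribosome assembly genes. Of the 9 genes with an E-box, 8 passed as lower with IL-6+IL-1β+IL-23 (Imp4, Nol11, Nop2, Rrp7a, Utp14b, Utp18, Utp20 and Utp4), and Exosc5 did not pass. This was close to the share among all 42 genes with a window, of which 36 passed as lower. A link between the E-box and the fall was not tested. The E-boxes began between 208 bases before and 38 bases after the start. The windows printed come from the RefSeq table for GRCm38.p6 and are in lower case with the motif in capitals: 3 with an E-box, Polr1b as a gene that also fell and holds neither motif, and Nop58, the only one with TAGGTCA, which lies on the reverse strand and so reads TGACCTA.
Utp20 (chr10:88826765-88827064, minus strand): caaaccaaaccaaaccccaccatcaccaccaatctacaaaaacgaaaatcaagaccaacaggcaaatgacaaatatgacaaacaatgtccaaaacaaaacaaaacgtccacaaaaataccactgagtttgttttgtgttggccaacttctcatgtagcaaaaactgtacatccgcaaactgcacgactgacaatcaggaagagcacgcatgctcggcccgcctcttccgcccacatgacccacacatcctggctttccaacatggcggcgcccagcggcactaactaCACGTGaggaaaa
Utp18 (chr11:93885717-93886016, minus strand): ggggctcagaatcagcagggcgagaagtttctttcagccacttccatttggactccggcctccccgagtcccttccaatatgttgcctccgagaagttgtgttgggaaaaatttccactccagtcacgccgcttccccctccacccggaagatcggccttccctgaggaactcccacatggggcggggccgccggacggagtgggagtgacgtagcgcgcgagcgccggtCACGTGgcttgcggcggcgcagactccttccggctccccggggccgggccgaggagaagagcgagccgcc
Nop2 (chr6:125131633-125131932, plus strand): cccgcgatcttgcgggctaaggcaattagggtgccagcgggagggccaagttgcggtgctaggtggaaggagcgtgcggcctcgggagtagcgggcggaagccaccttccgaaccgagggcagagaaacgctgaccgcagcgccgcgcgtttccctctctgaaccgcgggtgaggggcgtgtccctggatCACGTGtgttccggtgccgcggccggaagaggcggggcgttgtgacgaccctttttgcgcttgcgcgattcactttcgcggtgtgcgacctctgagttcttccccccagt
Polr1b (chr2:129100746-129101045, plus strand): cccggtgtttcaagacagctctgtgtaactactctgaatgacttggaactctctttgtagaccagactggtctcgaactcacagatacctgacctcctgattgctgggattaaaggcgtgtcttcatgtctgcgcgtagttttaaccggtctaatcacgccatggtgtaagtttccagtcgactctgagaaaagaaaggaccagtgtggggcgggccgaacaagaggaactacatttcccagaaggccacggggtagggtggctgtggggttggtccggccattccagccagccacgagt
Nop58 (chr1:59684756-59685055, plus strand): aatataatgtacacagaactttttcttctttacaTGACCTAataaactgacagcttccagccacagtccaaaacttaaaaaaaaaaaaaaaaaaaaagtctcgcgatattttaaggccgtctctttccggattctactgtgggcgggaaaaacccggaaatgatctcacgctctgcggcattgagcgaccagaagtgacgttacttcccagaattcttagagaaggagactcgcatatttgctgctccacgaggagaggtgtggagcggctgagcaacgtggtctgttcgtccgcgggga
These matches describe the letters of the windows and show no binding.

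The 3 snoRNP genes all fell. Nop58 and Nop56, core proteins of the box C/D snoRNPs that guide rRNA methylation, carry this pattern. Nop58 had 259 CPM (KO) and 267 CPM (WT) with IL-6+IL-1β+IL-23, against 546 CPM (KO) and 534 CPM (WT) with TGF-β+IL-6 (-1.04 ± 0.07, adjusted p = 2.89e-06 in edgeR's test). Nop56 had 256 CPM (KO) and 238 CPM (WT), against 464 CPM (KO) and 446 CPM (WT), a log2 fold change of -0.88 ± 0.07. Nop10, of the box H/ACA snoRNPs that guide pseudouridylation, had the widest gap between genotypes, at -1.01 in KO cells and -0.52 in WT cells (1 library against 1, no test). Its levels were 56.5 CPM (KO) and 68.9 CPM (WT), against 113 CPM (KO) and 98.7 CPM (WT).

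Large subunit assembly was the group with the clearest exception. Of its 11 genes 9 passed as lower, with Rrp12, a factor of precursor assembly and export, at 61.9 CPM (KO) and 59.1 CPM (WT) with IL-6+IL-1β+IL-23, against 160 CPM (KO) and 161 CPM (WT) with TGF-β+IL-6 (-1.40 ± 0.07). Nop53 (chr7:15936183-15946074, minus strand, GRCm38) went the other way, at 563 CPM (KO) and 571 CPM (WT) with IL-6+IL-1β+IL-23, against 254 CPM (KO) and 276 CPM (WT) with TGF-β+IL-6. It was 2.14-fold higher (1.10 ± 0.07, adjusted p = 2.32e-06 in edgeR's test). Nol12, an RNA-binding nucleolar protein, had a small difference in the same direction (0.22 ± 0.08, adjusted p = 0.0337 in edgeR's test), with 54.0 CPM (KO) and 55.4 CPM (WT), against 46.6 CPM (KO) and 47.1 CPM (WT). Nol12 and Utp23 did not pass without any one of the 4 cultured libraries, and 2 higher genes, Nop53 and Polr1d, were then left.

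Of the 9 exosome genes with counts, 7 passed as lower and 2, Exosc5 and Exosc8, did not pass (0.02 and -0.15). Exosc2, a cap subunit that binds RNA, had 35.2 CPM (KO) and 35.5 CPM (WT) with IL-6+IL-1β+IL-23, against 107 CPM (KO) and 99.2 CPM (WT) with TGF-β+IL-6 (-1.55 ± 0.08, adjusted p = 9.14e-07 in edgeR's test). Exosc10, the nuclear exonuclease subunit, had 126 CPM in both genotypes, against 181 CPM (KO) and 184 CPM (WT), a log2 fold change of -0.54 ± 0.07.

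**Figure D2:**
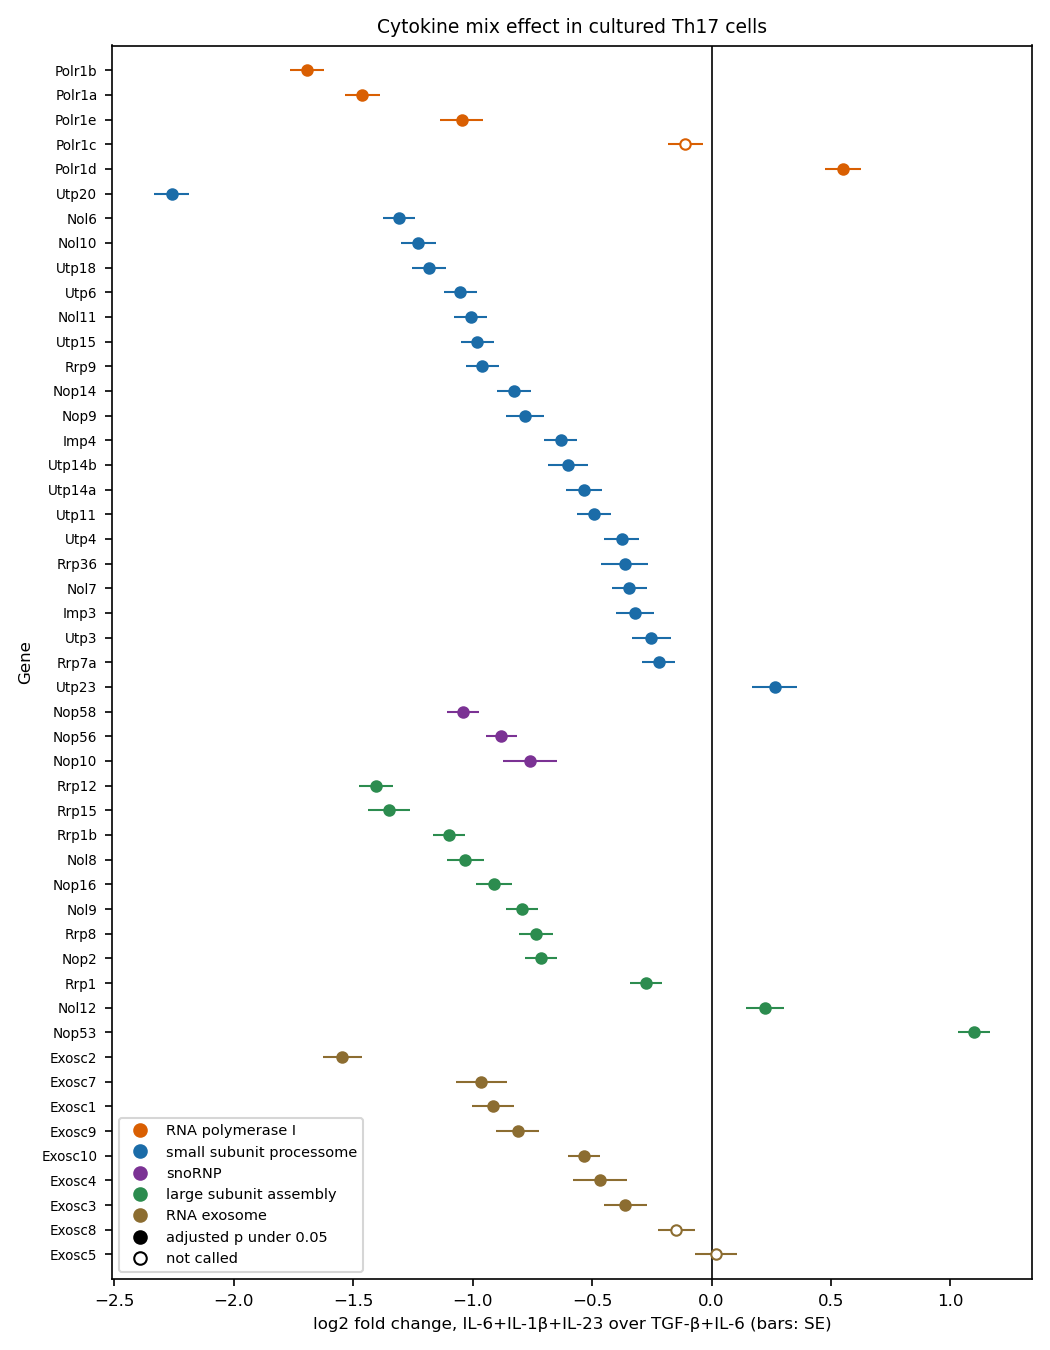
Log2 fold change of the 49 genes, IL-6+IL-1β+IL-23 over TGF-β+IL-6, with its SE, ordered within each role; filled points passed an adjusted p under 0.05 in edgeR's test. Utp20 lies lowest at -2.26, and Nop53 highest at 1.10.

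**Figure D3:**
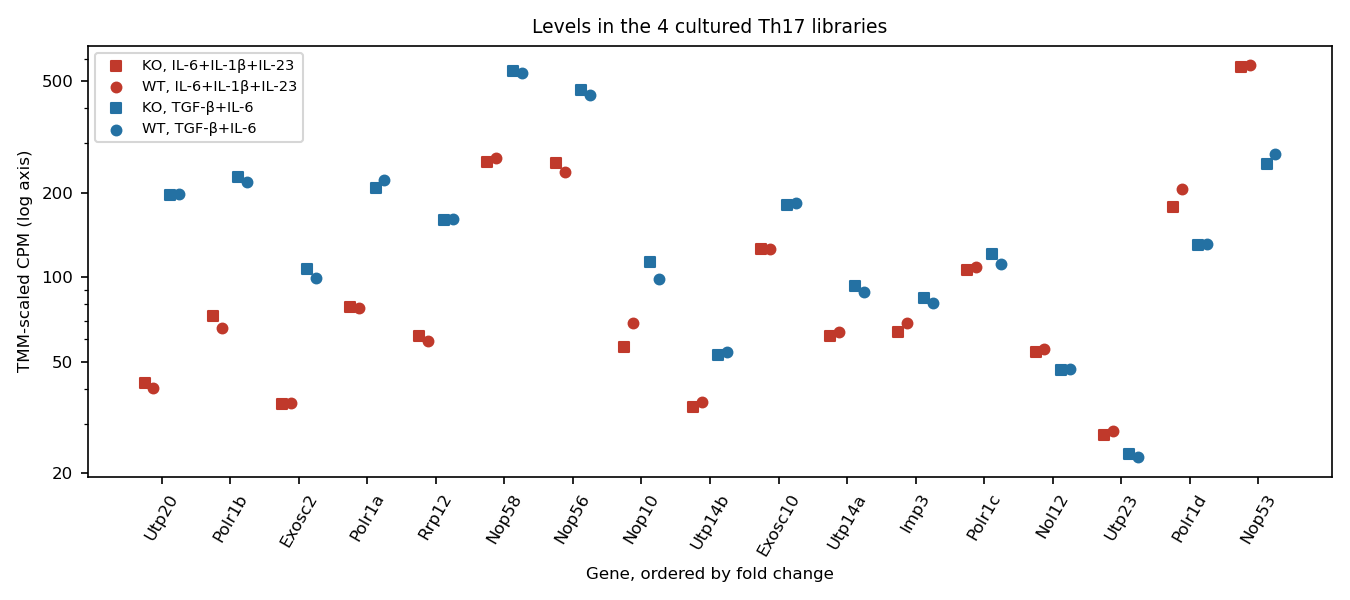
TMM-scaled CPM (log axis) in the 4 cultured libraries for 17 named genes, ordered by fold change. For Utp20 the mixes lie far apart and the genotypes close together (42.0 and 40.3 CPM against 196 and 199 CPM), and from Nol12 on the order of the mixes is turned round.

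Genes outside the 50 with similar roles moved the same way. Of 35 other small subunit assembly genes 30 passed as lower and 1 as higher (median -0.80, with Nat10 at -1.69 and Heatr1 at -1.74), and of 43 other large subunit genes 38 passed as lower and 1 as higher (median -0.69, with the AAA+ protein Mdn1 at -2.07). All 12 other snoRNP genes tested passed as lower (median -0.92), and so did 9 of 11 exosome cofactors and catalytic subunits (median -0.53) and 8 of 12 polymerase I factors and nucleolar scaffold genes, with 2 higher (median -0.61). Of 10 genes for MYC and its partners, 4 passed as lower and 6 as higher. Myc itself was lower, at 1072 CPM (KO) and 1100 CPM (WT) with IL-6+IL-1β+IL-23, against 1381 CPM (KO) and 1327 CPM (WT) with TGF-β+IL-6 (-0.32 ± 0.07, adjusted p = 0.00296 in edgeR's test). Mxd1, which competes with MYC for their shared partner MAX, was higher at 257 CPM (KO) and 284 CPM (WT), against 40.7 CPM (KO) and 46.8 CPM (WT). Mycn, on the same list, was also higher, at 17.1 CPM (KO) and 15.95 CPM (WT), against 0.314 CPM (KO) and 0.127 CPM (WT). Mga was lower, at 93.2 CPM (KO) and 81.2 CPM (WT), against 126 CPM (KO) and 146 CPM (WT). The list thus had no common direction, and its part in the difference of the ribosome assembly genes was not tested.

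Proliferation genes moved with the mix as well. All 25 on the list passed as lower with a median of -1.64, and their summed level was 1906 CPM (KO) and 1828 CPM (WT) with IL-6+IL-1β+IL-23, against 6272 CPM (KO) and 6284 CPM (WT) with TGF-β+IL-6. Their part in the difference of the ribosome assembly genes was not tested. T cell markers had no common direction (6 of 13 higher and 6 lower). Of the other cell markers, fibroblast-list genes summed to 412 CPM (KO) and 448 CPM (WT), against 2.39 CPM (KO) and 2.09 CPM (WT), with 3 of 9 tested and all 3 higher. This came from Lum (387 and 422 CPM) and Dcn (22.3 and 22.5 CPM), while Col3a1 and Sparc had 0 counts in the IL-6+IL-1β+IL-23 libraries. Dendritic cell markers summed to 288 CPM (KO) and 310 CPM (WT), against 39.7 CPM (KO) and 50.3 CPM (WT), with 3 of 6 higher and 1 lower. Most of this was H2-Ab1 (179 and 195 CPM with IL-6+IL-1β+IL-23) and Cd74 (103 and 110 CPM), while Itgax and H2-Aa were near 0. Macrophage markers summed to 27.9 CPM (KO) and 30.9 CPM (WT), against 2.51 CPM (KO) and 2.22 CPM (WT), nearly all of it Cd68, while C1qa, Lyz2 and Adgre1 had 0 counts in the IL-6+IL-1β+IL-23 libraries. Epithelial and B and plasma cell markers summed to at most 26.1 CPM in any cultured library. The part of these markers was not tested. Spearman's rho between log2 fold change and exon length was -0.37 over the 49 genes and -0.15 over 13817 genes, as a description across genes.

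The mix difference was about as large in either genotype. It had a median of -0.78 in KO cells, where 45 genes were below 0 and 4 above, and of -0.72 in WT cells, where 44 were below and 5 above. The sign was the same in both genotypes for 48 of 49 genes.

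The second comparison set KO against WT cells within culture, with the mixes as repeats. None of the 49 genes passed, beside 0.0286% of all 13983 genes (4 genes), and none reached an unadjusted p under 0.05, beside 3.58% of all genes. DESeq2 also called none of the 49. Log2 fold changes lay between -0.12 and 0.10 with SEs of 0.0657 to 0.113, and the lowest p in edgeR's test was 0.157. In all 49 genes the KO and WT libraries overlapped, but each genotype held 1 library of each mix. Where the mixes themselves did not overlap (44 genes below and 4 above), this outcome was fixed in advance. For those genes the overlap therefore tells nothing about genotype. Of all genes, 3.30% had both KO libraries above and 3.18% had both below. Polr1d was the farthest from 0, with 178 CPM (IL-6+IL-1β+IL-23) and 130 CPM (TGF-β+IL-6) in KO cells, against 206 and 132 CPM in WT cells (-0.12 ± 0.07). Within a mix, where 1 library stood against 1 and no test was possible, the median was -0.04 with IL-6+IL-1β+IL-23 and 0.06 with TGF-β+IL-6. With IL-6+IL-1β+IL-23, 34 genes were below 0 and 15 above, beside 50.7% of all genes below. With TGF-β+IL-6, 38 were above 0 and 11 below, beside 50.1% of all genes above. The fit took the mixes as repeats, so it cannot show a genotype difference that changes with the mix. A difference of the size of the SEs above was not detectable with 2 libraries a genotype.

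The third comparison set KO against WT CD4+ T cells from the inflamed colon. Here the genes did not move together: 8 of 49 (16.3%) passed as higher and 15 (30.6%) as lower in edgeR's quasi-likelihood test, with p adjusted over 13101 genes. Of all genes, 19.6% passed as higher and 19.9% as lower. The median log2 fold change was -0.08, beside 0.01 for all genes. Both KO libraries were above both WT libraries in 13 genes (26.5%) and below in 23 (46.9%), against 36.1% and 34.4% of all genes.

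The split depended on the scaling. With library totals in place of TMM, 15 genes passed as higher and 6 as lower (median 0.12), while the median of all genes moved by 0.193 and 77.3% of all calls were higher in place of 49.6%. With libraries scaled to the counts of 13 T cell markers, a setting chosen after seeing the data, 26 passed as higher and 4 as lower (median 0.28), and the median of all genes moved by 0.352. Calls as lower that held under all 3 scalings were Polr1c, Nop53, Rrp9 and Nop9. Both other scalings moved fold changes upward, so calls as higher could hardly be lost, and keeping them is no check. The higher calls were Nol7, Nol8, Nop14, Nop58, Rrp15, Utp11, Utp14b and Utp6. Of these, Nop14 and Rrp15 did not pass in DESeq2. Nop9 held narrowly, with an adjusted p of 0.0497 in edgeR's test with T cell marker scaling, and 29.9% of its exon bases overlap Cideb. TMM values follow.

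Markers of other cells moved with genotype in the same libraries. T cell markers summed to 9558 and 9407 CPM in KO libraries, against 12288 and 11939 CPM in WT libraries (11 of 13 lower, 1 higher). B and plasma cell markers summed to 2093 and 2275 CPM, against 598 and 585 CPM (6 of 7 higher), epithelial markers to 122 and 122 CPM, against 52.4 and 49.8 CPM (7 of 8 higher), and fibroblast markers to 113 and 103 CPM, against 34.4 and 26.1 CPM (8 of 9 higher). Macrophage markers summed to 73.9 and 72.4 CPM, against 54.0 and 50.4 CPM (5 of 8 higher), and dendritic cell markers to 495 and 520 CPM, against 349 and 342 CPM (4 of 6 higher, 2 lower). Among epithelial markers Krt8 was near 0 in WT colon cells, with 10.6 and 11.8 CPM in KO libraries, against 0.732 and 0.572 CPM in WT libraries. The part of these cells in the differences below was not tested, and in such bulk libraries fewer cells of a type and less RNA per cell cannot be told apart.

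Among polymerase I subunits, the shared ones passed as lower in KO colon cells with TMM scaling. Polr1c (chr17:46243920-46248054, minus strand, GRCm38) had 150 and 142 CPM in KO libraries, against 259 and 226 CPM in WT libraries. It was 1.66-fold lower (-0.73 ± 0.09, adjusted p = 8.84e-05 in edgeR's test), the smallest p of the 49 genes, and the groups did not overlap. Polr1d also passed as lower with TMM (-0.32 ± 0.08) and was above 0 with T cell marker scaling. Polr1a (0.18), Polr1b (-0.13) and Polr1e (0.02) did not pass.

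Processome genes went in both directions, 5 higher and 7 lower of 21. Rrp9, a protein of the U3 snoRNP, had 161 and 154 CPM in KO libraries, against 234 and 229 CPM in WT libraries (-0.56 ± 0.08, adjusted p = 0.000216 in edgeR's test). Nop9, an RNA-binding protein of small subunit precursors in yeast, had 82.5 and 92.2 CPM, against 124 and 147 CPM (-0.63 ± 0.10). Rrp7a, a further processome protein, had 146 and 132 CPM, against 213 and 181 CPM (-0.51 ± 0.09), but with T cell marker scaling it no longer passed (-0.15, edgeR adjusted p = 0.173). In these 3 genes all KO libraries were below all WT libraries. In the other direction, Utp11 had 60.6 and 63.5 CPM in KO libraries, against 49.3 and 45.9 CPM in WT libraries (0.38 ± 0.09), and Utp6, of the UTP-B subcomplex, had 83.6 and 85.6 CPM, against 69.2 and 62.5 CPM (0.36 ± 0.09). Utp6 did not pass without the second WT library (edgeR adjusted p = 0.0634). Imp3 passed as lower with TMM (68.8 and 80.1 CPM, against 90.4 and 96.4 CPM; -0.33 ± 0.09), did not pass without the second WT library or the first KO library, and was at 0.0253 with T cell marker scaling.

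Utp14b had the largest fold change, on few reads. It had 40 and 45 counts (2.73 and 2.91 CPM) in KO libraries, against 6 and 12 counts (0.488 and 0.858 CPM) in WT libraries (2.03 ± 0.35, adjusted p = 0.000960 in edgeR's test). Acsl3, whose exons overlap it, moved by the same amount (2.01 ± 0.36), at 3.48 and 2.98 CPM against 0.488 and 1.07 CPM. Both genes were far higher in cultured cells, where Utp14b had 34.6 to 53.9 CPM and Acsl3 49.4 to 82.4 CPM, and the colon and culture files were counted on different annotations. The Utp14b value is therefore uncertain, and whether its reads were shared with Acsl3 in counting was not tested. Utp14a, the X-linked copy, had 27.8 and 29.4 CPM, against 25.2 and 23.7 CPM, and did not pass (0.23 ± 0.11, edgeR adjusted p = 0.109).

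The snoRNP proteins parted. Nop58 had 140 and 139 CPM in KO libraries, against 106 and 95.4 CPM in WT libraries (0.47 ± 0.08, adjusted p = 0.00111 in edgeR's test). Nop10 had 52.2 and 52.5 CPM, against 76.0 and 68.6 CPM (-0.46 ± 0.09), and with T cell marker scaling it did not pass (-0.11). Nop56, the partner of Nop58, did not pass at 169 and 180 CPM, against 162 and 155 CPM (0.14 ± 0.08, edgeR adjusted p = 0.175).

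Of the large subunit genes 2 passed as higher and 3 as lower. Nop53 had 742 and 685 CPM in KO libraries, against 1058 and 1127 CPM in WT libraries, 1.53-fold lower (-0.61 ± 0.08, adjusted p = 0.000161 in edgeR's test). Nol8 (chr13:49653078-49679016, plus strand, GRCm38), a nucleolar protein, had 42.4 and 43.3 CPM, against 25.6 and 24.2 CPM, 1.72-fold higher (0.78 ± 0.10, adjusted p = 0.000119 in edgeR's test). Nop53 stayed lower under all 3 scalings, while the other scalings could only raise Nol8. In both genes the groups did not overlap. Exosome genes gave 2 lower (Exosc4 at -0.39 and Exosc5 at -0.36 with TMM, neither past the threshold with library totals) and 7 that did not pass, among them Exosc10 at 171 and 165 CPM, against 196 and 186 CPM (-0.19 ± 0.08).

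**Figure D4:**
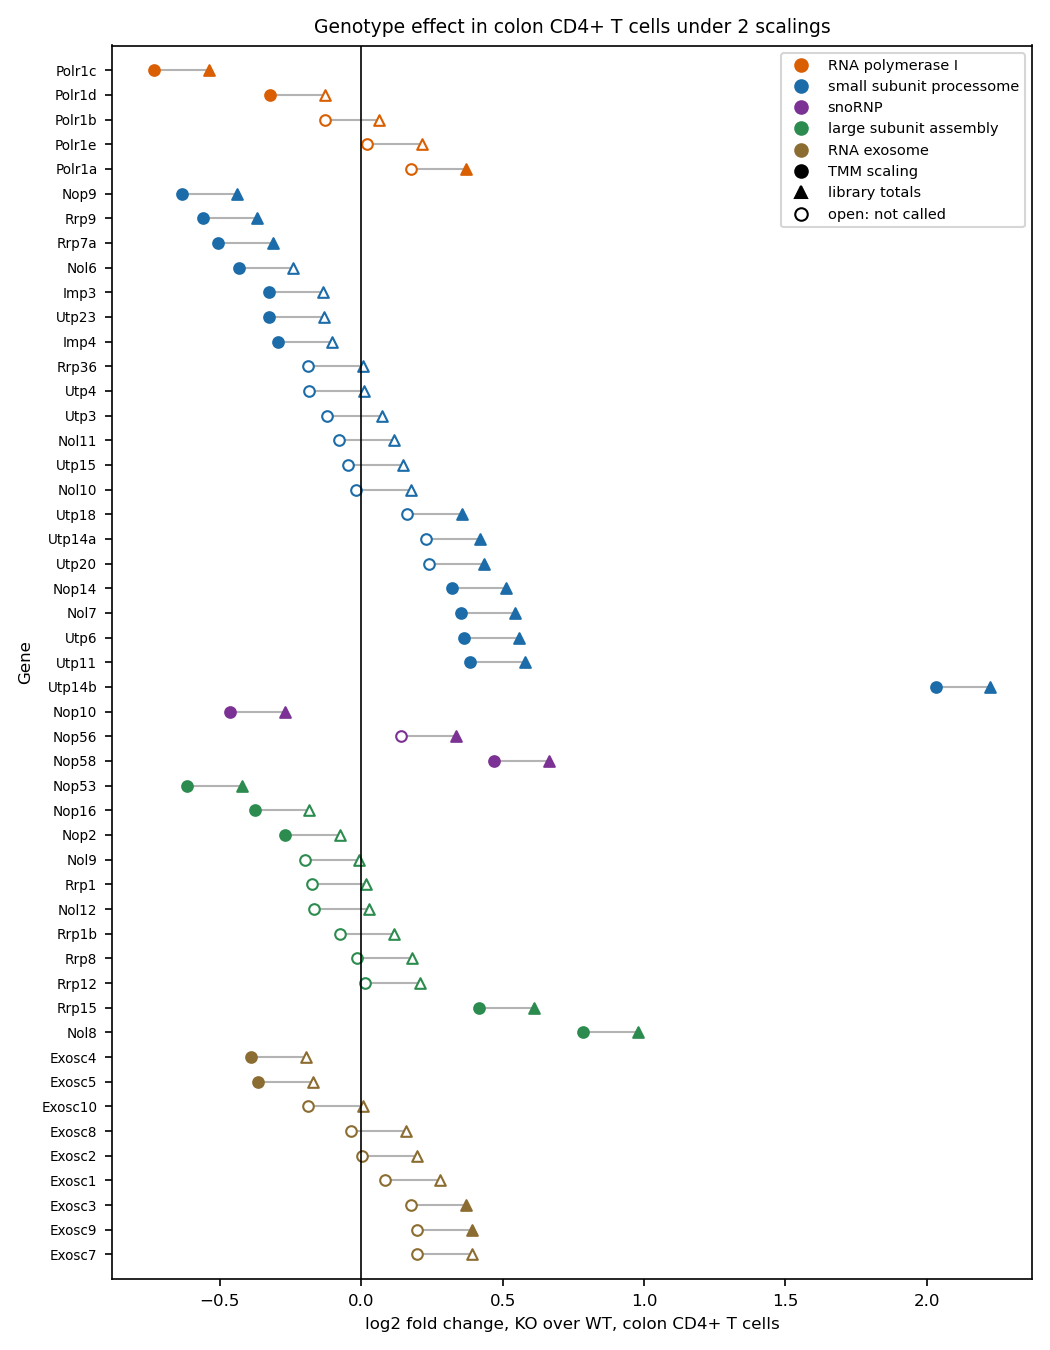
Log2 fold change of the 49 genes in colon CD4+ T cells, KO over WT, with TMM scaling (circles) and library totals (triangles); filled symbols passed an adjusted p under 0.05 in edgeR's test. Library totals move each gene to the right by about the same amount (0.193 at the median of all genes). Several genes near 0 thus change sign, while Polr1c (-0.73 with TMM) does not. Nol8 (0.78 with TMM) lies above 0, so such a move could not turn its sign.

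Other ribosome assembly genes were also divided in the colon, with more of them higher. Of 35 other small subunit genes 15 passed as higher and 5 as lower (median 0.18), of 43 other large subunit genes 19 and 9 (median 0.07), of 11 exosome cofactors 6 and 1 (median 0.29), of 12 polymerase I factors 5 and 1 (median 0.09) and of 12 snoRNP genes 2 and 4 (median -0.02). Of 25 proliferation genes 4 passed as higher and 5 as lower. Of 9 genes tested for MYC and its partners, 1 passed as higher and 5 as lower. Myc had 740 and 733 CPM in KO libraries, against 1179 and 1206 CPM in WT libraries (-0.70 ± 0.08, adjusted p = 4.37e-05 in edgeR's test), and Mxd1 had 89.6 and 84.4 CPM, against 167 and 168 CPM. Mga went the other way, at 37.2 and 39.2 CPM in KO libraries, against 20.6 and 23.9 CPM in WT libraries. The part of these genes was not tested. Exon length went with the fold change over the 49 genes (Spearman's rho 0.35) and over 13079 genes (0.21), and the median exon length was 4614 bases in higher and 2992 bases in lower genes of the 49, beside 5317.5 and 3353 bases for all genes that passed. The part of length was not tested.

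Of the 42 genes lower with IL-6+IL-1β+IL-23, 8 were higher, 10 were lower and 24 did not pass in KO colon cells. Among all genes, whatever their mix call, 19.6% passed as higher and 19.9% as lower there. The same cross-count over all genes was not made. Of the 4 genes higher in that mix, Nop53, Polr1d and Utp23 were lower in KO colon cells and Nol12 did not pass. Calls under TMM scaling are counted here. Polr1d and Utp23 did not pass with library totals. With T cell marker scaling their log2 fold changes were 0.0323 and 0.0270, while Nop53 stayed lower under each scaling.

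The genotype difference in the colon was then set against that in culture in a fit of all 8 libraries. Of 49 genes 5 (10.2%) had a higher and 7 (14.3%) a lower value in the colon than in culture, beside 7.71% and 9.57% of all 14886 genes. Polr1c differed by -0.77 ± 0.12 (-0.73 in the colon and 0.04 in culture, adjusted p = 0.000888 in edgeR's test) and Rrp9 by -0.59 ± 0.11 (-0.56 and 0.02, adjusted p = 0.00223). Nol8 differed by 0.68 ± 0.12 (0.78 and 0.10, edgeR adjusted p = 0.00240), but not past the threshold without the WT or the KO library of TGF-β+IL-6 (0.0535 and 0.0557). Without either of these libraries, 1 higher gene, the uncertain Utp14b, and 3 lower genes, Polr1c, Rrp9 and Nop53, were left. With library totals the counts were 11 higher and 4 lower.

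**Figure D5:**
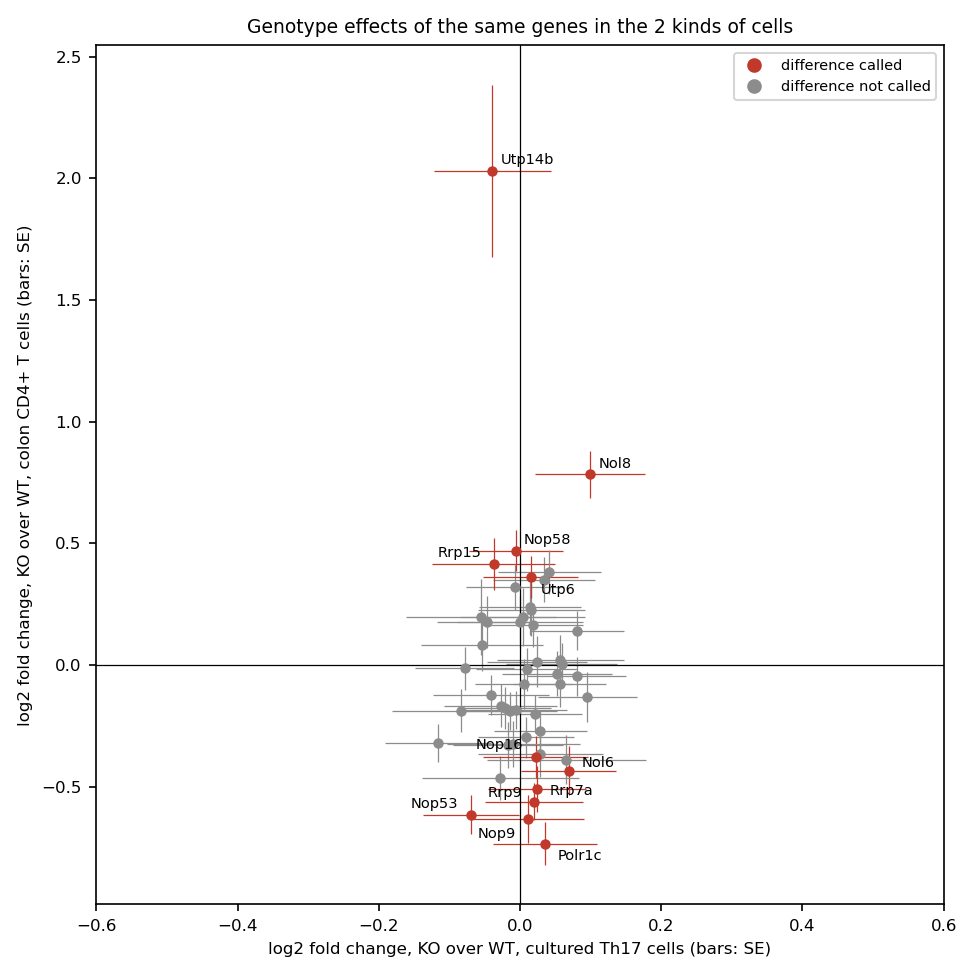
Log2 fold change of each of the 49 genes, KO over WT, in colon CD4+ T cells (vertical) and in cultured Th17 cells (horizontal; the axes have different scales), with TMM scaling and SEs; red points are the 12 genes whose difference passed an adjusted p under 0.05. Values in culture lie between -0.12 and 0.10, while those in the colon reach from -0.73 (Polr1c) to 2.03 (Utp14b).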

How the data were processed

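RNA-seq libraries of colon CD4+ T cells (2 KO, 2 WT) and of cultured Th17 cells (4, 1 per genotype and mix) were used. The authors deposited raw read counts per gene for each library, with no normalization, per the file headers. The submitters' processing notes list the build mm10 and the tools Bowtie2, Trim Galore, DESeq2, edgeR and featureCounts, without roles or versions. Colon and culture files were counted on different annotations (54446 and 55341 entries) and were joined by symbol. Symbols turned into dates held at most 0.269% of counts and were not used. Replicate libraries of the colon differed beyond counting error (chi-square per gene 5.03 for KO and 6.85 for WT).

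Counts were tested over all genes in R 4.3.3 with edgeR 4.0.16 (filterByExpr, TMM, quasi-likelihood F-test, Benjamini-Hochberg adjustment, threshold 0.05). Cultured libraries were fitted with terms for mix and genotype (1 residual degree of freedom), colon libraries alone (2), and all 8 together for the difference between genotype effects (3). SEs were taken from the fold change and its F value. The biological coefficient of variation was 5.75% in culture and 7.48% in the colon. Ratios of 1 library to 1 used a prior count of 2. RPKM used exon lengths of GENCODE M21. DESeq2 1.42.0, other scalings, no filter, a replicate block and leaving out libraries were tried as alternatives. The methods were tested on simulated data.

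The 50 genes, the gene lists and the naming rule were chosen with earlier results of these data known. Named with full values were up to 5 genes per direction with the smallest p in each comparison, the largest fold change, up to 4 for the difference, the highest RPKM in each role, and Utp14a, Utp14b, Nop56, Nop58 and Nop10. Other genes were named for the sequences or as exceptions after their values were seen.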

Additional observations from a re-analysis of the deposited data

Results flagged for a closer look

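For 12 of the 49 genes the genotype difference in the colon was unlike that in culture, by a test of the difference itself in the fit of all 8 libraries (edgeR's quasi-likelihood test, Benjamini-Hochberg adjustment over 14886 genes). Of the 49 genes 10.2% passed as higher and 14.3% as lower, beside 7.71% and 9.57% of all genes. The values that follow are the log2 KO over WT difference in the colon minus that in culture. Lower in the colon were Polr1c (-0.77), Nop9 (-0.65), Rrp9 (-0.59), Nop53 (-0.55), Rrp7a (-0.54), Nol6 (-0.51) and Nop16 (-0.40). Higher in the colon were Utp14b (2.07, with the counting limit given above), Nol8 (0.68), Nop58 (0.47), Rrp15 (0.45) and Utp6 (0.34). Adjusted p-values ran from 0.000698 (Utp14b) to 0.0483 (Utp6). In culture itself no gene of the 12 passed, and 2 KO libraries were set against 2 WT libraries in either kind of cell. Without the WT or the KO library of TGF-β+IL-6, Utp14b, Polr1c, Rrp9 and Nop53 passed and the other 8 did not. With library totals in place of TMM, Nol6, Nop16 and Rrp7a did not pass. Markers of B and plasma cells, epithelium and fibroblasts were higher in the same KO colon libraries, and their part in these values was not tested.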

How the results depend on the processing

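For the mix, the count of lower genes was within 1.5 times of 42 under each alternative run (35 to 40 without 1 cultured library in the fit of all 8, where the lone library of a group is assumed to vary like the others). The count of higher genes was 2 with no filter on low counts, with DESeq2 and without any 1 cultured library (2 to 2). The median was -0.808 with no filter, -0.7245 in WT cells alone, and -0.8062 to -0.7226 without 1 cultured library (-0.7309 without the KO library of TGF-β+IL-6). For genotype in culture no alternative called any of the 49 genes, and the median was -0.0430 to 0.0601 without 1 cultured library (-0.0427 without the KO library of TGF-β+IL-6, 0.0595 without that of IL-6+IL-1β+IL-23), and -0.0386 with IL-6+IL-1β+IL-23 and 0.0552 with TGF-β+IL-6. For genotype in the colon, library totals gave 15 higher, 6 lower and a median of 0.12, T cell marker scaling (chosen after seeing the data) gave 26, 4 and 0.28 and turned Imp3 to 0.0253 (edgeR adjusted p = 0.853), and leaving out 1 colon library gave 6 to 8 higher, 12 to 15 lower and medians of -0.11 to -0.05. For the difference between colon and culture, library totals gave 11 higher and 4 lower, no filter and DESeq2 gave 3 higher each, and leaving out 1 library gave 1 to 4 higher and 3 to 9 lower. The cause of these shifts was not tested, beyond the shift of all genes that a scaling brings by construction. No label says that a replicate number marks a shared mouse or day, and the deviations of same-numbered colon libraries correlated at 0.15 over 13101 genes with 2 pairs. With the replicate number as a block, 8 colon genes were higher and 19 lower (median -0.08), and no call was lost. Depth limits Utp14b in the colon (6 to 45 counts).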
